A study of Mus musculus with 24 samples.

Results

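The genes described here are 9 transcription regulators that mark the layers of the cerebral cortex: Cux1, Cux2, Pou3f2, Rorb, Fezf2, Tbr1, Sox5, Tle4 and Foxp2. They were picked out by symbol, as 9 of the 55177 genes in the count tables. RNA sequencing was done on 24 libraries of neurons cultured from the cortex of mouse embryos at embryonic day 16.5. The samples compare resting with briefly depolarized neurons, and cultures with, without and with altered Smarcc2, a subunit of the chromatin-remodelling BAF complex.

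All cultures were silenced overnight with 1 µM tetrodotoxin, a sodium channel blocker, and 100 µM D-AP5, an NMDA receptor blocker. Depolarization was by 50 mM KCl, added for 30 min before collection, and resting cultures got none. At 7 days in vitro (DIV7) the neurons were of wild-type genotype, carried no construct and received 0.1% DMSO in both states (2 resting and 2 depolarized libraries). At 18 days (DIV18) the cultures carried CRISPR guide RNAs. The controls had a non-targeting guide (NT, 2 resting and 2 depolarized). The others had a guide that knocks out Smarcc2 (KO), together with an empty vector (3 and 3), wild-type Smarcc2 added back (WT, 2 and 3), Smarcc2 S586E (3, resting) or Smarcc2 S586A (2, depolarized). S586E and S586A replace a serine by glutamate and by alanine. The labels treat the cortex of each embryo as a biological replicate, but do not say which libraries came from the same embryo. The efficiency of the guide and the share of cells that carried each construct are not given in the sources used here, so a KO culture may be a mixture of edited and unedited cells. DIV7 RNA was selected by its poly(A) tail, and DIV18 RNA was total RNA freed of ribosomal RNA.

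Projection neurons of the neocortex are born in sequence, the deep layers before the upper ones, and each layer class keeps a set of transcription factors that fix its connections. Cux1, Cux2 and Pou3f2 (Brn2) mark the upper layers, whose neurons mostly project within the cortex, and Rorb marks layer 4, which receives input from the thalamus. Fezf2 specifies the layer 5 neurons that project below the cortex, Tbr1 the layer 6 neurons that project to the thalamus, Sox5 controls the timing of deep-layer fates, and Tle4 and Foxp2 are kept in layer 6. Fezf2 and Tbr1 are known to repress each other's programme in the developing cortex.

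The 4 DIV7 libraries held 24422254 to 29995001 estimated counts in genes, and the 20 DIV18 libraries 14447367 to 23926652. Levels of the targeted gene matched the labels. Smarcc2 lay at 237 to 265 CPM in resting NT cultures and at 47.1 to 64.1 CPM in resting KO cultures with vector, where CPM is the count scaled to the normalised library total. The addbacks raised it above NT, and to unequal levels. At rest it was 756 to 816 CPM with WT and 1164 to 1276 CPM with S586E. Under KCl it was 274 to 283 CPM in NT, 737 to 1089 CPM with WT and 1303 to 1340 CPM with S586A. The 6 neuronal markers examined were all above 1 CPM in every group, so the labelled cell type was present. Glial markers were present too, and the 8 astrocyte markers summed to 534 to 646 CPM at DIV7 and 839 to 1992 CPM at DIV18. In such bulk samples, fewer cells of a layer and less RNA per cell cannot be told apart.

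All 9 genes passed the filter on low counts in every comparison. They are protein-coding genes of GRCm38 (GENCODE M21): Cux1 on chromosome 5 from 136248135 to 136567490, Cux2 on chromosome 5 from 121856366 to 122050102, Pou3f2 on chromosome 4 from 22482780 to 22488366, and Rorb on chromosome 19 from 18930605 to 19111196. The deep-layer genes lie on chromosome 14 (Fezf2, 12342094 to 12348189), chromosome 2 (Tbr1, 61802930 to 61814114), chromosome 6 (Sox5, 143828425 to 144781977, and Foxp2, 14901349 to 15441977) and chromosome 19 (Tle4, 14448150 to 14598051). Tbr1 and Foxp2 are on the plus strand and the other 7 on the minus strand. The counts behind them were unequal. Cux2 had 2101 to 4531 estimated counts in a DIV18 library, Tbr1 1247 to 2973, Fezf2 63 to 202, and Foxp2 37 to 126. Antisense genes that overlap Cux1, Cux2 and Sox5 reached at most 7.27 estimated counts in any library. Overlapping genes on the same strand reached up to 29.5 estimated counts in Cux1 (A430110C17Rik) and 23.3 in Sox5 (Gm44068).

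**Figure D1:**
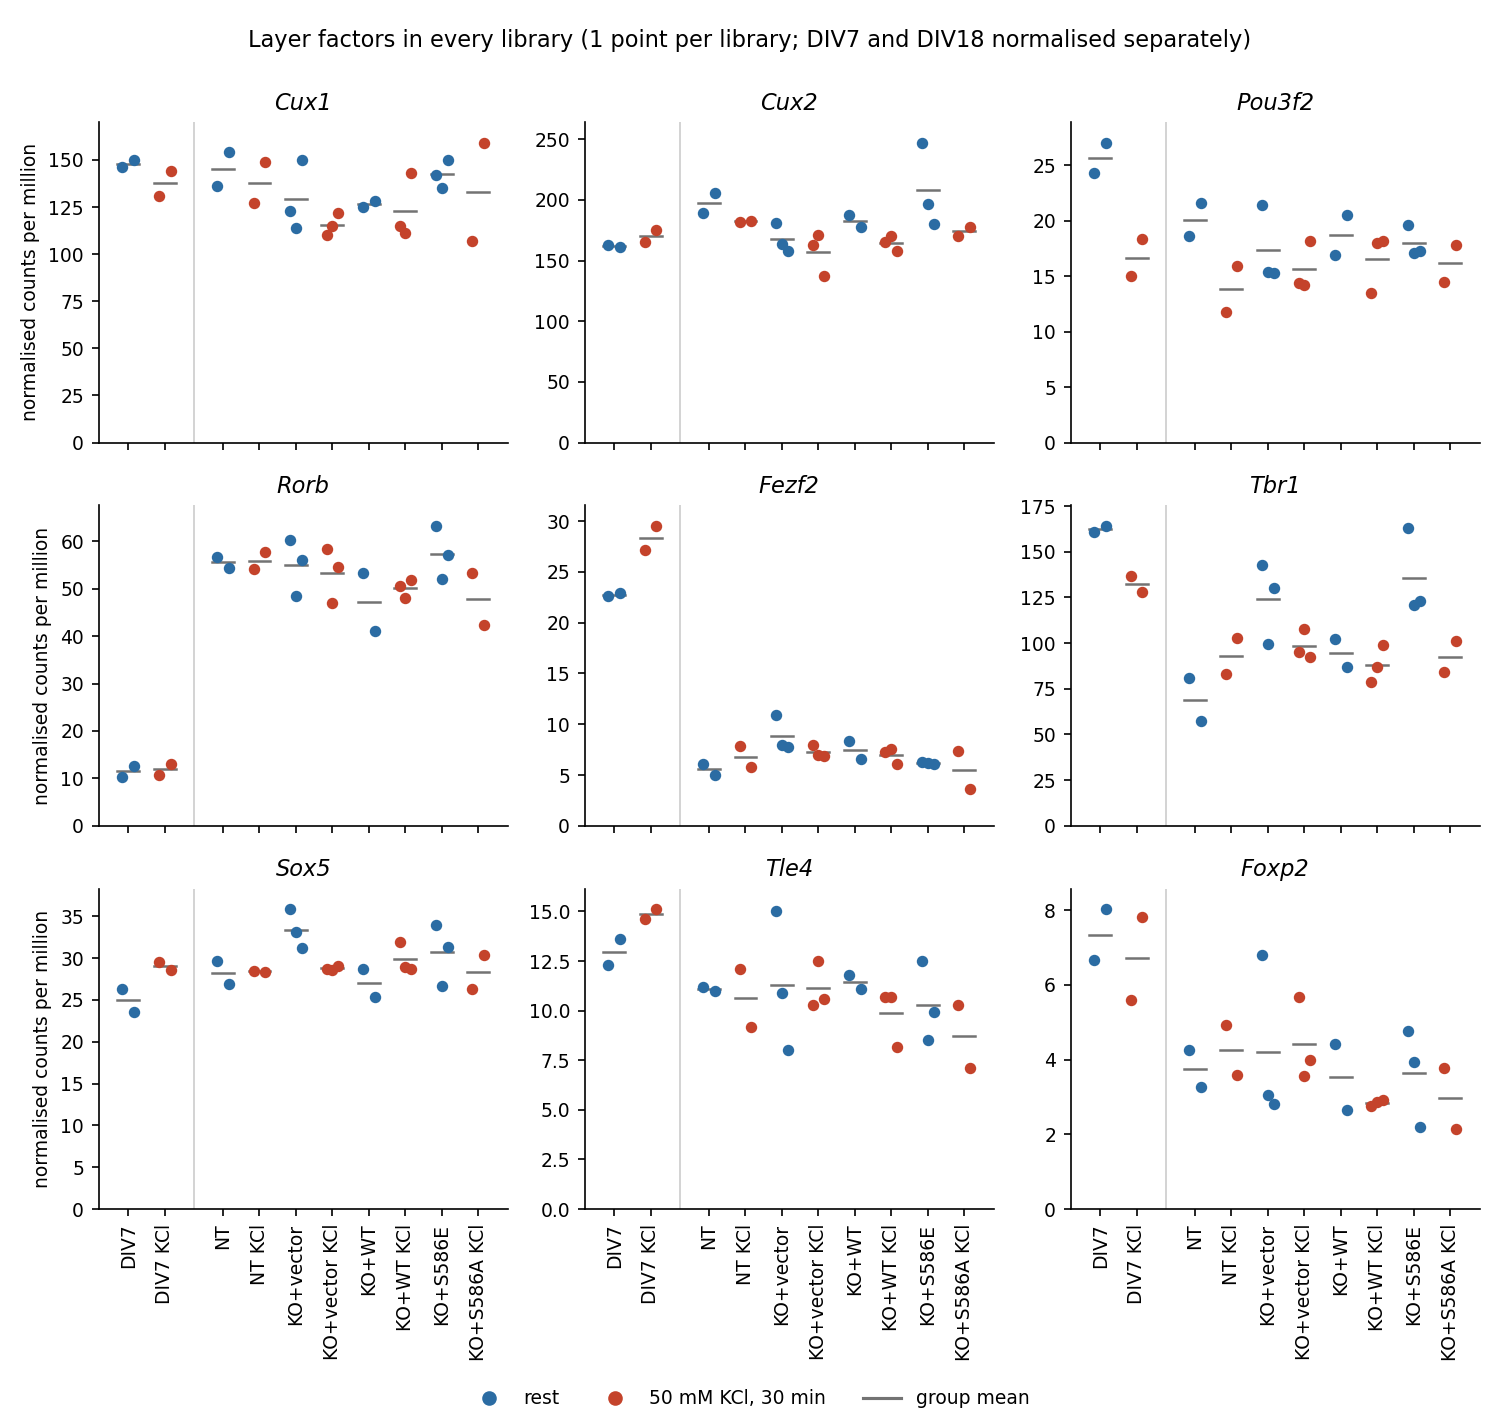
CPM of each of the 9 genes (vertical axes, from 0) in every library, by group; blue points are resting and red points depolarized libraries, and grey bars are group means. Rorb is low and Fezf2 high at DIV7 (left of the grey line), and among resting libraries Tbr1 is lowest in NT, at 81.0 and 57.2 CPM.

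Within a library, levels of different genes were compared as TPM, which is scaled by transcript length. In resting DIV7 cultures Cux2 was the most abundant of the 9, at 83.1 and 88.5 TPM. Cux1 (77.0 and 79.7 TPM) and Tbr1 (77.4 and 78.6 TPM) followed and overlapped. Fezf2 came next with a mean of 19.9 TPM, then Sox5 (9.56 and 11.1 TPM) and Pou3f2 (7.92 and 8.77 TPM). Foxp2 (4.14 and 7.78 TPM) and Tle4 (4.97 and 5.52 TPM) overlapped, and Rorb was the lowest at 2.01 and 2.49 TPM. The cultures thus held RNA of upper-layer and deep-layer factors side by side, with little RNA of the layer 4 factor. In resting NT cultures at DIV18 Cux2 (38.3 and 42.8 TPM) still led, followed by Cux1 (30.0 and 33.2 TPM) and Tbr1 (21.5 and 13.6 TPM). Sox5 was at 11.6 and 8.01 TPM and Rorb at 5.49 and 5.61 TPM. Rorb there lay above Pou3f2 (2.98 and 3.43 TPM), and above Fezf2, Tle4 and Foxp2, which overlapped one another between 1.33 and 2.61 TPM. With Smarcc2 knocked out and vector added, Tbr1 (23.8 to 36.0 TPM) overlapped Cux2 (28.7 to 36.6 TPM) at rest. Counting protein-coding transcripts alone moved some of these levels, among them Cux2 in resting DIV7 cultures, which then averaged 60.9 TPM.

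Depolarization at DIV7 changed 3 of the 9 genes, in different directions. Pou3f2 and Tbr1 fell and Fezf2 rose. Of all 19822 genes tested 17% were called, 7.34% higher and 9.67% lower, and 3 of 9 is read against that background. The median log2 fold change of the 9 was 0.05. Changes are called at an adjusted p under 0.05, from edgeR's quasi-likelihood test with Benjamini-Hochberg adjustment over all genes tested.

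Because RNA was taken 30 min after KCl, windows before a RefSeq start of these 3 genes are shown. They were searched for motifs of 2 families of activity-regulated factors. The windows are the 250 bases before the RefSeq start on GRCm38.p6, which held an entry for 8 of the 9 genes, and are read 5′ to 3′ on the strand of the gene: Pou3f2 on chr4:22488367-22488616 (minus), Tbr1 on chr2:61804203-61804452 (plus) and Fezf2 on chr14:12345866-12346115 (minus). The Tbr1 and Fezf2 windows lie inside the GENCODE spans of these genes given above, and the Pou3f2 window lies just outside its span. Both strands were searched for TGACGTCA (the CRE), TGACG (its shorter form, contained in the CRE) and TGANTCA (the AP-1 motif), and capitals mark a match.
Pou3f2: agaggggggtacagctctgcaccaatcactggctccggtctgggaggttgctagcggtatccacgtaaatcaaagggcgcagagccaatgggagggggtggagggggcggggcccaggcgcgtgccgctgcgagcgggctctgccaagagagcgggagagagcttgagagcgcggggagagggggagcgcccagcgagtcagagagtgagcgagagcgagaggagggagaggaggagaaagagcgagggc
Tbr1: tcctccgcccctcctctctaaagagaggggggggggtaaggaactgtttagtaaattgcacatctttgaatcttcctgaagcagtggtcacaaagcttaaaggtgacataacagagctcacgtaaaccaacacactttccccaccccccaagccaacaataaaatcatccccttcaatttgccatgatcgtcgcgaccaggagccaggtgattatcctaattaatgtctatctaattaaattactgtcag
Fezf2: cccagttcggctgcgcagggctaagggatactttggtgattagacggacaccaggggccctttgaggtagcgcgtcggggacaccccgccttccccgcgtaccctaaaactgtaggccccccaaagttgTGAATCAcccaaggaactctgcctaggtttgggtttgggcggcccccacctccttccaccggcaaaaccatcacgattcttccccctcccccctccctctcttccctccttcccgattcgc
The Fezf2 window held 1 AP-1 match, starting 121 bases before the start site. The Pou3f2 and Tbr1 windows held none of the 3 motifs. In all, 11 windows of the 8 genes with an entry were searched. The only other match was an AP-1 match in a Rorb window, which is not shown. Rorb was not called after KCl at DIV7 (log2 fold change 0.05, adjusted p 0.848, edgeR). Over 32851 promoter windows of the same length, 6.75% held an AP-1 match, 1.55% a CRE and 17.8% its shorter form. A match describes these letters only, and nothing was measured on binding.

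Pou3f2, a POU factor of upper-layer neurons and their progenitors, fell most. It lay at 24.3 and 27.0 CPM in the resting DIV7 libraries and at 15.0 and 18.3 CPM after KCl, without overlap. The log2 fold change was -0.62 (SE 0.114, adjusted p 0.0124 by edgeR). Both depolarized libraries were lower than both resting ones. Without resting replicate 2 it was no longer called (-0.55, adjusted p 0.0636).

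Tbr1, the T-box factor of layer 6, lay at 161 and 164 CPM at rest and at 137 and 128 CPM after KCl. Again the groups did not overlap. The log2 fold change was -0.30 (SE 0.0507, adjusted p 0.00975 by edgeR). Tbr1 was called lower in all 10 alternative analyses, with adjusted p from 7.65e-06 to 0.048.

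Fezf2, the zinc finger factor of layer 5, lay at 22.6 and 22.9 CPM at rest and at 27.2 and 29.5 CPM after KCl. Both depolarized libraries were higher. The log2 fold change was 0.32 (SE 0.0773, adjusted p 0.0329 by edgeR). This call was lost with DESeq2 (0.139), with offsets for effective length (0.065) and with protein-coding transcripts alone (0.0544). It was also lost without resting replicate 1 (0.149), resting replicate 2 (0.121) or depolarized replicate 2 (0.132), while the log2 fold change stayed between 0.26 and 0.38. Within each library, the TPM of Fezf2 was 0.254 to 0.256 of that of Tbr1 at rest and 0.370 to 0.413 of it after KCl.

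The other 6 genes did not pass at DIV7. Log2 fold changes were -0.11 for Cux1 (adjusted p 0.25, edgeR), 0.07 for Cux2 (0.392), 0.05 for Rorb (0.848), 0.22 for Sox5 (0.117), 0.20 for Tle4 (0.204) and -0.13 for Foxp2 (0.7). Sox5 lay at 26.3 and 23.6 CPM at rest and at 29.5 and 28.6 CPM after KCl, and Tle4 at 12.3 and 13.6 against 14.6 and 15.1 CPM, each without overlap. In 7 of the 9 genes the 2 resting and 2 depolarized libraries did not overlap, 4 higher and 3 lower after KCl, against 59.1% of all genes tested.

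Other genes of the same layers also moved both ways at DIV7. Among upper-layer and callosal genes, the netrin receptor gene Unc5d rose by a log2 fold change of 0.49 (adjusted p 0.00236, edgeR) and Mef2c by 0.16 (adjusted p 0.0274), and none fell. Of 10 layer 5 genes, Crim1 rose (0.46) while Fam84b (-0.54) and Foxo1 (-0.35) fell. Among 12 layer 6 and subplate genes only Nr4a2, an immediate early gene as well as a subplate marker, passed, with a log2 fold change of 4.37 (adjusted p 2.74e-07, edgeR). None of 4 layer 4 genes passed, and of 8 projection-neuron genes Neurod6 fell (-0.15, adjusted p 0.048, edgeR). Of the 12 tested paralogues of the 9 genes, Foxp4 (-0.61, adjusted p 0.000967) and Tle2 (-0.55, adjusted p 0.0155, edgeR) fell. The median of the upper-layer list was 0.10 and that of the layer 6 list 0.15.

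**Figure D2:**
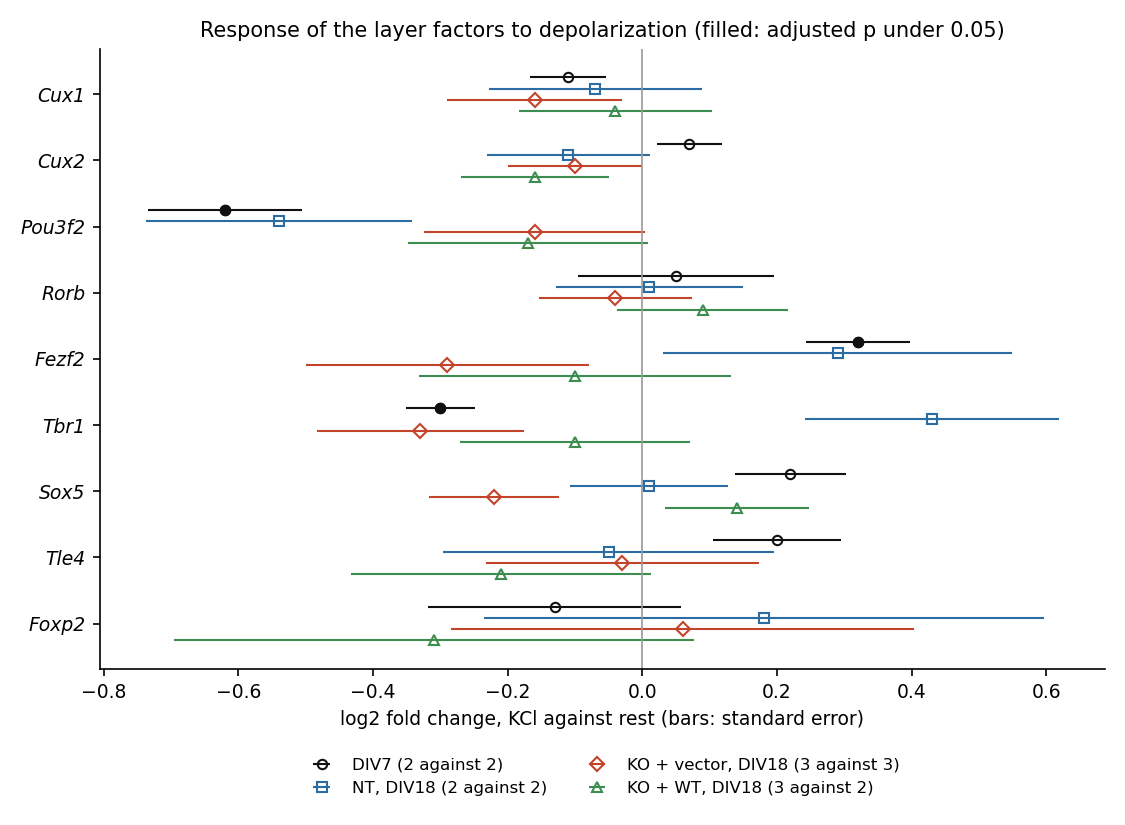
Log2 fold change of each of the 9 genes after KCl against rest (horizontal axis, bars are 1 standard error) in 4 kinds of culture; filled symbols passed an adjusted p of 0.05. Only Pou3f2, Fezf2 and Tbr1 at DIV7 are filled, and the Tbr1 estimates run from -0.33 in KO cultures with vector to 0.43 in NT cultures.

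At DIV18 depolarization changed none of the 9 genes in NT cultures, in KO cultures with vector or in KO cultures with WT. Few genes of any kind were called there, 0.00955%, 0.0716% and 0.043% of 20940 tested. In 3 of the 9 genes (Cux2, Pou3f2 and Tbr1) the resting and depolarized NT libraries did not overlap, against 33.4% of all genes. In NT cultures 906 genes had an unadjusted p under 0.05, and 2 of the 9 genes, Pou3f2 and Tbr1, were among them. Pou3f2 lay at 18.6 and 21.6 CPM at rest and at 11.8 and 15.9 CPM after KCl, without overlap (log2 fold change -0.54, SE 0.198, unadjusted p 0.0136, adjusted p 1, edgeR). Its DIV7 value was -0.62, and the difference between the 2 responses was 0.06 (SE 0.269, adjusted p 0.987). Thus the depolarized libraries were the lower ones at DIV7 and in NT cultures at DIV18, and the test passed at DIV7 alone. In KO cultures the resting and depolarized libraries overlapped for Pou3f2. The log2 fold change was -0.16 with vector (SE 0.164, adjusted p 0.781, edgeR) and -0.17 with WT (SE 0.178, adjusted p 0.981).

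Tbr1 in NT cultures lay at 81.0 and 57.2 CPM at rest and at 82.9 and 103 CPM after KCl. The depolarized libraries were the higher ones here (log2 fold change 0.43, SE 0.189, adjusted p 1, edgeR). The response at DIV18 exceeded that at DIV7 by 0.71 on the log2 scale (SE 0.25, unadjusted p 0.0102), which did not pass over all genes (adjusted p 0.206). That comparison called 1.82% of the 22459 genes tested and none of the 9.

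In KO cultures with vector, Tbr1 lay at 143, 99.4 and 130 CPM at rest and at 95.2, 108 and 92.6 CPM after KCl, with overlap (log2 fold change -0.33, SE 0.154, adjusted p 0.476, edgeR). Sox5 was the 1 gene of the 9 whose depolarized libraries were all lower (35.8, 33.1 and 31.2 against 28.7, 28.6 and 29.0 CPM), against 15.7% of genes whose libraries did not overlap, and it was not called (log2 fold change -0.22, adjusted p 0.456). The difference of the Tbr1 response between KO with vector and NT was -0.76 (SE 0.244, unadjusted p 0.006, adjusted p 0.472). By edgeR 0 genes were called for that difference, and 1845 had an unadjusted p under 0.05. With WT added back Tbr1 lay at 102 and 86.8 CPM at rest and at 78.6, 86.7 and 99.2 CPM after KCl (log2 fold change -0.10, SE 0.171, adjusted p 0.985).

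Loss of Smarcc2 in resting neurons went with a higher level of Tbr1. Its 3 KO libraries with vector, at 143, 99.4 and 130 CPM, all lay above the 2 NT libraries, at 81.0 and 57.2 CPM. The log2 fold change was 0.84 (SE 0.176, adjusted p 0.00905, edgeR), a 1.79-fold difference, and Tbr1 was the 1 gene of the 9 that was called, against 5.9% of the 20940 genes tested in either direction and 2.13% higher. The TPM of Tbr1 was 0.318 to 0.563 of that of Cux2 in the NT libraries and 0.829 to 0.982 of it in the KO libraries with vector. The call rested on the low NT replicate 2. Without it the log2 fold change was 0.61 (adjusted p 0.254), and with just these 5 libraries in the model it was 0.85 (adjusted p 0.0654).

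Fezf2, the other deep-layer gene with a large estimate, lay at 6.12 and 5.0 CPM in resting NT cultures and at 10.9, 7.97 and 7.77 CPM in KO cultures with vector. The groups did not overlap, but the difference did not pass (log2 fold change 0.67, SE 0.238, adjusted p 0.106, edgeR). Sox5 lay at 29.6 and 26.9 CPM against 35.8, 33.1 and 31.2 CPM (0.24, adjusted p 0.209). The upper-layer gene Cux2 was lower in the 3 KO libraries (181, 164 and 158 CPM) than in the 2 NT libraries (189 and 206 CPM), with a log2 fold change of -0.24 (adjusted p 0.233). In 4 of the 9 genes the libraries did not overlap, against 34.4% of all genes tested. Cux1 (-0.17), Pou3f2 (-0.21), Rorb (-0.02), Tle4 (0.03) and Foxp2 (0.17) overlapped between the groups, with adjusted p of at least 0.559.

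Under KCl the same comparison called none of the 9 genes, against 2.67% of all genes tested, and in 3 of the 9 the libraries did not overlap, against 35.8% of all genes. Tbr1 lay at 82.9 and 103 CPM in NT cultures and at 95.2, 108 and 92.6 CPM in KO cultures with vector, with overlap (log2 fold change 0.09, SE 0.172, adjusted p 0.859, edgeR). Fezf2 was at 7.82 and 5.76 against 7.99, 7.00 and 6.84 CPM (0.10, adjusted p 0.884). All 10 depolarized DIV18 libraries held Tbr1 between 78.6 and 108 CPM, whichever construct they carried.

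**Figure D3:**
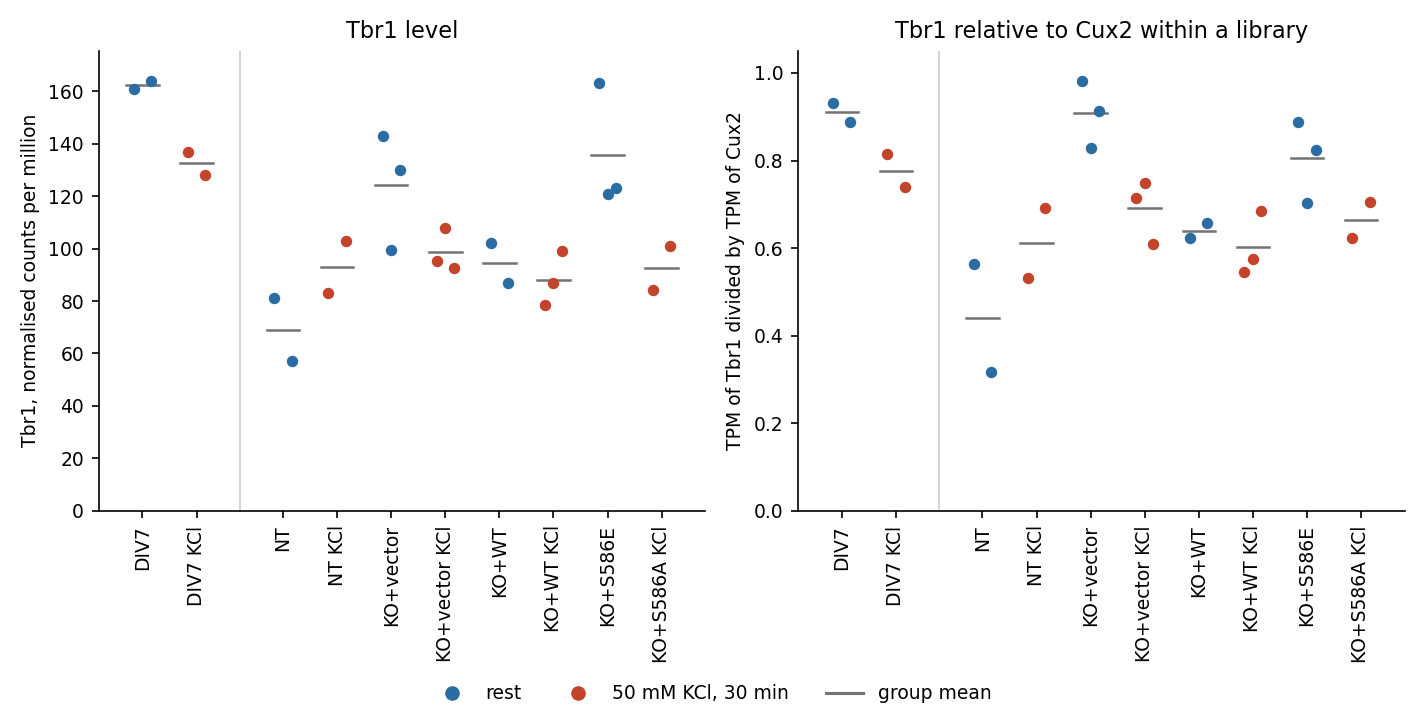
Tbr1 in every library by group, as CPM (left axis, from 0) and as the TPM of Tbr1 divided by that of Cux2 in the same library (right axis, from 0); blue is rest, red is KCl, grey bars are group means. At rest the NT libraries lie lowest, at 81.0 and 57.2 CPM, and the KO libraries with vector or S586E lie at 99.4 to 163 CPM.

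The comparison of S586E with NT at rest gave Tbr1 as its 1 called gene of the 9. The S586E libraries lay at 163, 121 and 123 CPM, above both NT libraries (log2 fold change 0.97, SE 0.176, adjusted p 0.0111, edgeR), against 2.78% of all genes tested in either direction and 1.04% higher. It was also the 1 gene of the 9 without overlap, against 34.9% of all genes. These are the same 2 NT libraries as in the comparison with vector, so the 2 calls are not separate evidence. Without NT replicate 2 the value was 0.75 (adjusted p 0.371), and without S586E replicate 1 it was 0.82 (adjusted p 0.0542). With WT added back, Tbr1 at rest lay at 102 and 86.8 CPM, above both NT libraries but not called (0.45, SE 0.189, adjusted p 0.553). In that comparison 40.3% of all genes did not overlap.

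Between constructs on the same knockout background none of the 9 genes was called. WT against vector at rest gave -0.39 for Tbr1 (SE 0.173, adjusted p 0.412, edgeR), with the lower vector library inside the WT range, and -0.25 for Fezf2 (adjusted p 0.74). Under KCl these values were -0.16 and -0.06 (adjusted p 0.999). S586E against vector at rest gave 0.13 for Tbr1 (adjusted p 0.945) and -0.52 for Fezf2 (SE 0.211, adjusted p 0.585). The 3 S586E libraries held Fezf2 at 6.26, 6.20 and 6.11 CPM, all below the 3 vector libraries, and 11.1% of all genes did not overlap there. The 4 comparisons of addback with vector called 0.0143%, 0.00955%, 0.0191% and 0.00955% of 20940 genes, so few genes of any kind separated these cultures.

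The substitutions were compared with WT as well. Both substituted forms also had more Smarcc2 RNA than WT, as given above, and the part of this level was not tested. S586E lay above WT at rest for Tbr1 in every library (163, 121 and 123 against 102 and 86.8 CPM), with a log2 fold change of 0.52 (SE 0.173, unadjusted p 0.00723, adjusted p 0.227, edgeR). In that comparison edgeR called 0 genes, 2696 genes had an unadjusted p under 0.05, and 31.3% did not overlap. S586A against WT under KCl gave 0.07 for Tbr1 (84.3 and 101 against 78.6, 86.7 and 99.2 CPM, adjusted p 0.932) and -0.33 for Fezf2 (adjusted p 0.7). Again edgeR called 0 genes, with 1824 at an unadjusted p under 0.05. S586A was measured only under KCl and S586E only at rest, so the substitutions were not compared with each other. WT at rest, WT under KCl and S586A under KCl were each compared with NT too. They called none of the 9 genes, against 0.105%, 0.201% and 0.43% of all genes.

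Glial markers also differed between the groups. The 8 oligodendrocyte-lineage markers summed to 200 to 211 CPM in resting NT cultures, 133 to 151 CPM in KO cultures with vector, 141 to 162 CPM with S586E and 109 to 135 CPM with WT. The sums overlapped between WT and vector and between vector and S586E, and single markers differed in order. Sox10, the lineage's defining factor, was at 2.76 and 8.40 CPM in the NT libraries and at 0 in all 3 KO libraries with vector, and 5 of the 8 markers were called lower there. Of all genes tested in that comparison 5.9% were called in either direction and 2.13% higher. The resting mean of Sox10 was 0.380 CPM with WT and 0.0463 CPM with S586E. The mean of Pdgfra was 25.0 CPM in NT, 1.95 with WT, 0.741 with S586E and 0.661 with vector. Olig2 was instead lowest with WT (5.41 CPM, against 14.5 in NT, 6.46 with S586E and 6.47 with vector). The 8 astrocyte markers summed to 1609 to 1802 CPM in NT, 949 to 1385 CPM with vector, 1288 to 1404 CPM with S586E and 1049 to 1235 CPM with WT, and 2 of 8 were called lower with vector. The 6 neuronal markers summed to 3249 to 3265 CPM in NT and 2912 to 3377 CPM with vector, and none was called. The part of the glial shifts in the Tbr1 difference was not tested.

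Other layer genes gave a mixed picture after loss of Smarcc2 at rest. Of 10 layer 5 genes Pcp4 (0.84, adjusted p 0.0124, edgeR) and the contactin gene Cntn6 (0.79) rose, and Foxo1 (-0.76) fell. Of 12 layer 6 and subplate genes only Nfia fell (-0.75, adjusted p 0.0197), a factor that astrocytes also express. Of 14 upper-layer genes Mdga1 rose (0.66), and Plxnd1 (-0.74) and the Pou3f2 paralogue Pou3f1 (-0.41) fell. Among 8 genes shared by projection neurons, Slc17a6, which encodes the vesicular glutamate transporter VGLUT2, rose (0.84, adjusted p 0.00292). None of 4 layer 4 genes passed. Over all genes tested 5.9% were called in that comparison, 2.13% higher, and the list counts are read against these shares. List medians were 0.11 for upper-layer, -0.32 for layer 4, 0.03 for layer 5 and 0.15 for layer 6 genes, beside 0.02 over all genes tested. Under KCl, Lpl (-0.81), Crym (-1.35) and Nfia (-0.71) fell and Rasgrf2 (0.49) rose. The Tbr1 paralogue Eomes, a marker of intermediate progenitors, was called lower there too (adjusted p 0.0289, edgeR) and was at 0 in all 3 KO libraries with vector. It was the 1 gene called of 8 progenitor markers tested in that comparison, where 2.67% of all genes were called. In both groups only 5 of the 8 markers reached a mean of 1 CPM.

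Culture age went with the largest differences among the 9 genes. Resting NT cultures at DIV18 were compared with resting DIV7 cultures in a fit over both ages, on whose scale the next values are given. Rorb, Cux2 and Sox5 were higher and Fezf2 and Tbr1 lower at DIV18, 5 of 9 genes called against 52.7% of the 22459 tested (26.8% higher and 25.9% lower). The ages also differ in RNA selection and in the guide RNA, and these cannot be told apart from age.

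Rorb, the orphan nuclear receptor of layer 4, lay at 9.16 and 11.2 CPM at DIV7 and at 57.8 and 55.4 CPM at DIV18. The log2 fold change was 2.47 (SE 0.158, adjusted p 3e-11, edgeR), a 5.56-fold difference. Fezf2 went the other way, from 20.1 and 20.2 CPM to 6.23 and 5.09 CPM, a log2 fold change of -1.83 (SE 0.232, adjusted p 9.53e-07). Tbr1 lay at 143 and 145 CPM and at 82.4 and 58.3 CPM (-1.03, SE 0.178, adjusted p 4.94e-05). These 3 genes were called in all 11 alternative analyses, and none of their groups overlapped.

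Ratios between genes of 1 library do not depend on the scaling between libraries. The TPM of Rorb was 0.0904 to 0.125 of that of Fezf2 in the 4 DIV7 libraries and 1.37 to 2.69 times it in the 20 DIV18 libraries. Against Tbr1 it was 0.026 to 0.0409 at DIV7 and 0.152 to 0.412 at DIV18. Every library of 1 age lay apart from every library of the other in both ratios, in both states and with every construct. These ratios pair Rorb, called higher at DIV18 (log2 fold change 2.47), with Fezf2 (-1.83) and Tbr1 (-1.03), called lower. The separation is therefore not separate evidence from those calls. Between resting NT and resting DIV7 libraries 79.8% of all genes did not overlap. How often ratios of other gene pairs separate the ages was not tested.

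**Figure D4:**
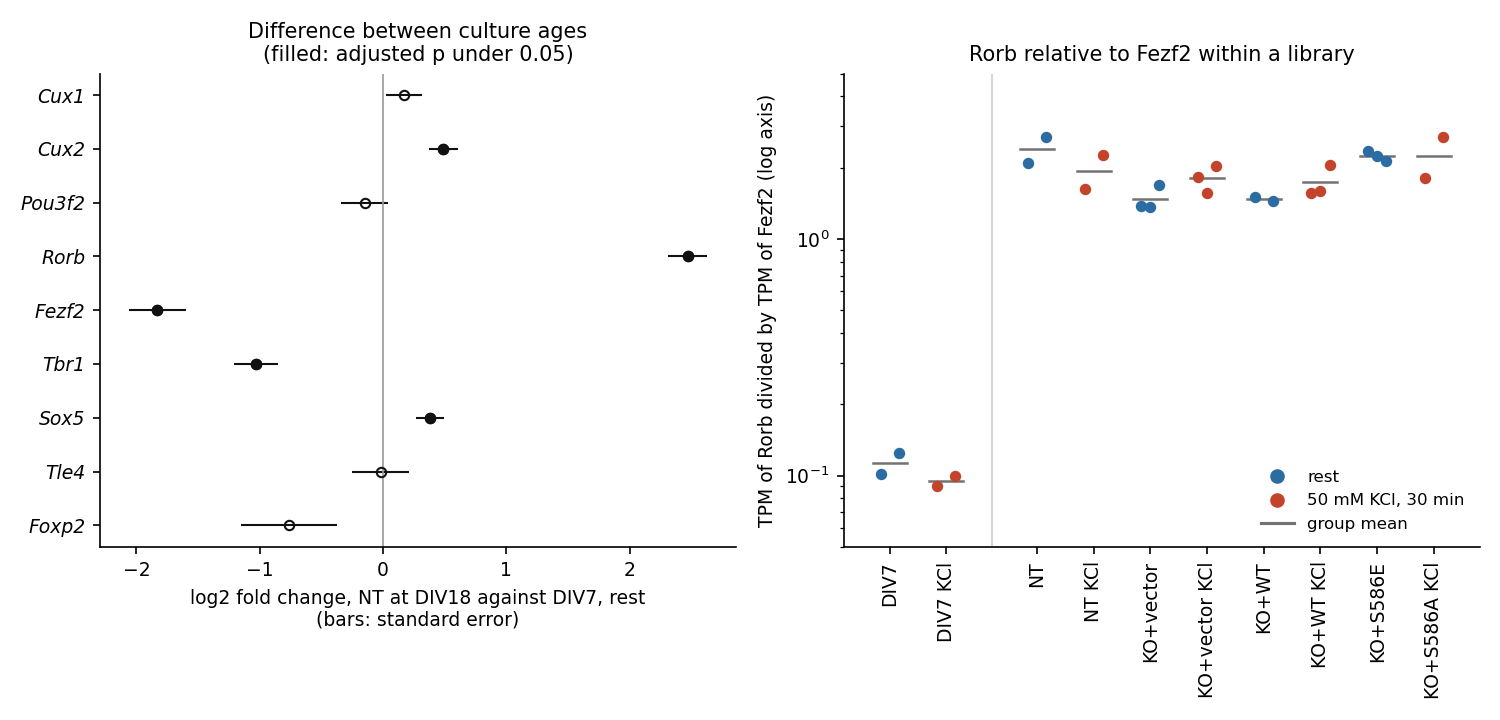
Left, log2 fold change of each of the 9 genes in resting NT cultures at DIV18 against resting DIV7 cultures (bars are 1 standard error, filled points passed an adjusted p of 0.05). Right, TPM of Rorb divided by that of Fezf2 in each library on a log axis, 0.0904 to 0.125 at DIV7 and 1.37 to 2.69 at DIV18.

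Cux2, the homeodomain factor of the upper layers, lay at 145 and 142 CPM at DIV7 and at 192 and 210 CPM at DIV18 (log2 fold change 0.49, SE 0.116, adjusted p 0.00133, edgeR). With effective-length offsets this was 0.22 and no longer called (adjusted p 0.149). Sox5 lay at 23.5 and 20.8 CPM against 30.1 and 27.4 CPM (0.38, SE 0.114, adjusted p 0.00859). It was no longer called without DIV7 resting replicate 2 (0.30, adjusted p 0.102) or without NT resting replicate 1 (0.30, adjusted p 0.0986), and it reached 1.22 with effective-length offsets. Cux1, Pou3f2, Tle4 and Foxp2 were not called. Cux1 gave 0.17 (adjusted p 0.35), Pou3f2 -0.15 (0.512), Tle4 -0.02 (0.94) and Foxp2 -0.76 (0.105). Foxp2 was called lower in 3 alternative analyses (adjusted p 0.0214 to 0.0415). In 7 of the 9 genes the 2 ages did not overlap, against 79.8% of all genes.

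Other layer genes moved both ways in the same comparison. Of 4 layer 4 genes 3 rose, Kcnh5 (4.47), Scnn1a (2.36) and Rspo1 (1.64). Of 14 upper-layer genes 4 rose and 9 fell, among the latter Bhlhe22 (-3.06), Lhx2 (-2.58), Mdga1 (-1.93) and Inhba (-2.40). Of 10 layer 5 genes 5 fell, among them Crim1 (-1.37), Ldb2 (-1.22), Crym (-1.68) and Bcl11b (CTIP2, -1.01), and Pcp4 (1.12) rose. Of 12 layer 6 and subplate genes 5 rose, among them Nxph4 (2.41), Foxp1 (0.63) and Moxd1 (2.78), and Rprm (-1.81) fell. These counts are read against the 52.7% of all genes called in that comparison, and the shares of 6 of 10 layer 5 and 6 of 12 layer 6 genes are near it. Of 8 projection-neuron genes 6 fell, among them Neurod6 (-3.43) and Slc17a6 (-1.48), and Slc17a7, which encodes VGLUT1, rose (3.75). Of 15 tested paralogues 5 rose and 6 fell, among them Rora (4.33), Tle2 (-3.19), Tle1 (-1.90) and Pou3f3 (-0.78). List medians were 2.00 for layer 4, -0.93 for upper-layer, -0.59 for layer 5, 0.32 for layer 6 and -0.94 for projection-neuron genes, beside 0.01 over all genes. The markers of other cells also differed between the ages, and 6 of 8 oligodendrocyte-lineage and 3 of 8 astrocyte markers were called higher at DIV18, against 26.8% of all genes. Markers of Cajal-Retzius cells, early-born neurons that also express Tbr1, summed to 199 to 314 CPM in resting DIV7 cultures and to 36.3 to 45.8 CPM in resting NT cultures. Of their 4 tested markers Reln (-2.84) and Calb2 (-1.48) fell and Trp73 (2.58) rose. The part of these in the age differences was not tested.

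Cux1 makes 2 kinds of protein, and its total hides a difference between them. Transcripts with the CUX end encode the homeodomain transcription factor, and those with the CASP end encode a Golgi protein that lacks the DNA-binding domains. Both kinds share exon 14 (chr5:136314307-136314403, minus strand, GRCm38) and part in the next exon, at chr5:136312643-136313008 in the CUX transcript Cux1-201 and at chr5:136257913-136258040 in the CASP transcript Cux1-211. The junctions are shown because they are where the 2 messages become distinguishable, with the shared bases in lower case and the first 30 bases of the next exon in capitals.
Cux1-201 (CUX): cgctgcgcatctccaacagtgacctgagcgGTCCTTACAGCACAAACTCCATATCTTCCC
Cux1-211 (CASP): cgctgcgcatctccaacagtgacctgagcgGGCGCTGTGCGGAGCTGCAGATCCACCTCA
The split into these forms was made after the data were seen. Reads in the shared exons were divided between the forms by the authors' counting program, and the CUX transcripts are much longer (12862 bases for Cux1-201, 2831 for Cux1-211), so the share of each form is an estimate.

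The CASP end held 53.1% to 59.6% of the Cux1 counts in the 4 DIV7 libraries and 30.4% to 44.5% in the 20 DIV18 libraries, with no overlap. The mean difference was -18.5 percentage points (exact permutation test over libraries, two-sided, p 9.41e-05, the smallest it can give, adjusted over 4 such tests to 0.000376). This test treated all constructs and states of an age as alike, so its p-value does not compare matched cultures. In resting cultures alone the share was 55.8% and 53.1% at DIV7 and 42.5% and 38.8% in NT at DIV18. RNA selection differs in the same way as age here. In resting cultures the CUX end was higher at DIV18 (log2 fold change 0.59, SE 0.134, adjusted p 0.000827 by edgeR), while the CASP end gave -0.26 (adjusted p 0.274). After KCl at DIV7 the CUX end fell from 60.2 and 65.1 CPM to 48.7 and 53.4 CPM (-0.29, SE 0.0702, adjusted p 0.031, edgeR). The CASP end gave 0.01 (adjusted p 0.907), and 17% of all genes were called after KCl at DIV7. At DIV18 the CUX end was not called after KCl, at -0.06 in NT, -0.17 in KO with vector and -0.07 in KO with WT. Cux1 as a whole was called neither between the ages nor after KCl.

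Among DIV18 groups the mean CASP share was lowest in KO cultures with vector. It was 37.0%, 30.4% and 34.9% there at rest and 34.5%, 35.0% and 35.3% under KCl. NT cultures had 42.5% and 38.8% at rest and 39.2% and 40.2% under KCl, above every KO library with vector. The mean difference within states was -5.65 percentage points (exact permutation within states, two-sided, p 0.01, the smallest it can give, adjusted p 0.0133). With WT added back the share was 39.7% and 37.7% at rest and 37.9%, 38.3% and 41.2% under KCl, again above every vector library (4.42 points, exact p 0.01, adjusted p 0.0133). WT differed from NT by -1.23 points (exact p 0.35). S586E cultures had 40.4%, 36.1% and 43.5%, and S586A cultures 40.5% and 44.5%.

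**Figure D5:**
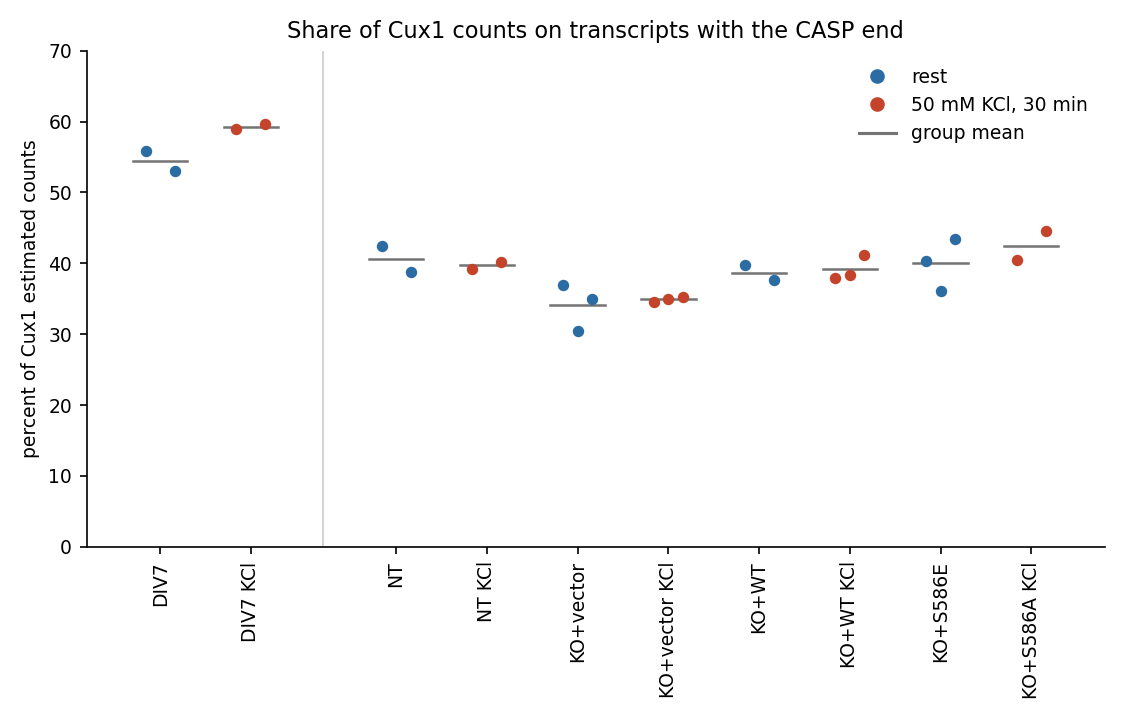
Percent of the estimated counts of Cux1 on transcripts with the CASP end (vertical axis, from 0) in every library; blue is rest, red is KCl, grey bars are group means. The DIV7 libraries lie at 53.1% to 59.6%, and among DIV18 groups KO with vector has the lowest means, with libraries at 30.4% to 37.0%; 1 S586E library, at 36.1%, lies within that range.

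The tests of the CASP share depended on the measure. As a share of TPM the difference of KO with vector from NT was -6.4 points (exact p 0.06) and that of WT from vector 3.47 points (exact p 0.16). Without NT resting replicate 1 the first was -4.74 points (exact p 0.075), and without WT resting replicate 1 the second was 3.94 points (exact p 0.0875). In the fit across all genes the CASP end of KO with vector against NT was not called, with a log2 fold change of -0.41 at rest (adjusted p 0.222, edgeR) and -0.44 under KCl (adjusted p 0.248). The permutation treats resting and depolarized libraries as independent, and whether some share an embryo is not known.

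Transcripts of Rorb and Sox5 were also grouped by their exact annotated start, those of Sox5 also by whether a stop codon is annotated. The upstream start of Rorb held 53.6% to 99.6% of its counts at DIV7 and 87.1% to 99.6% at DIV18, so the level of Rorb was mostly that of this form. Transcripts from the long start of Sox5 held 77.3% to 88.5% of its counts at DIV18 and those from the short start 3.18% to 11.1%. The short-start form rested on few reads, 23.7 and 25.6 estimated counts in resting NT libraries and 50.6, 41.5 and 52.5 in KO libraries with vector. It was called higher in the latter (log2 fold change 1.31, SE 0.322, adjusted p 0.0216 by edgeR). This form was picked out after its values were seen. NT libraries under KCl held 66.3 and 48.2 counts and S586E libraries at rest 35.3, 28.2 and 19.1, so the low NT values were those of the resting libraries. WT libraries at rest held 55.9 and 59.7 counts, as in KO with vector (log2 fold change 0.00, SE 0.295, adjusted p 0.999, edgeR).

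Across the 20 DIV18 libraries the highest correlations among the 9 genes were those of Fezf2 with Tle4 (Pearson r 0.63, Spearman rho 0.43), Tle4 with Foxp2 (r 0.63, rho 0.53), Rorb with Foxp2 (r 0.62, rho 0.60) and Fezf2 with Foxp2 (r 0.59, rho 0.47). They joined deep-layer genes with one another and with the layer 4 gene Rorb. Cux1 varied against Fezf2 (r -0.66, Spearman rho -0.70). Tbr1 gave r 0.24 with Fezf2 and 0.03 with Tle4, and its highest r was with Sox5 (0.58, rho 0.39). These are descriptions over libraries that share groups, depth and glial content. Of 13213 genes with a mean of at least 1 CPM, those most like Tbr1 were Kcns2 (r 0.932), Prdm8 (0.931) and Sox11 (0.928). Cux2 was most like Ski (0.908), Necab3 (0.9) and Gas7 (0.889), and Fezf2 most like Cntn4 (0.844), Dmd (0.789) and Arhgef3 (0.788). The closest gene was Skil for Cux1 (0.834), Marcks for Pou3f2 (0.683), Intu for Rorb (0.799), Smarca4 for Sox5 (0.777), Lancl2 for Tle4 (0.841) and Glra2 for Foxp2 (0.754).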

How the data were processed

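RNA-seq of 24 libraries was used (4 at DIV7, 20 at DIV18). The files hold estimated counts, TPM and effective length for 142552 transcripts, as deposited by the authors; the submitters' processing notes name FastQC, cutadapt and kallisto without versions. The TPM values are the authors' own, per the file headers. The genome build and transcript annotation are not given in the sources used here. Transcripts were matched by identifier to GENCODE M21 (99.2% matched) and their estimated counts summed per gene and rounded. Lengths served as offsets in 1 alternative.

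The 9 genes and the gene lists were chosen with earlier results of these data known. Genes were tested with edgeR 4.0.16 in R 4.3.3 (filterByExpr, TMM normalisation, quasi-likelihood test, Benjamini-Hochberg adjustment over all genes, threshold 0.05), in 1 fit per age (19822 and 20940 genes) and 1 over both (22459). Residual degrees of freedom were 2, 12 and 14. Replicates are separate libraries of a group, and p-values measure only the spread between them. The text names all 9 genes, for the lists it describes up to 4 called genes of smallest p (and Pcp4, chosen after its values were seen, as the 1 layer 5 gene higher at DIV18) and, for likeness, the 3 genes with the highest Pearson r of log2 CPM. The scripts were tested on simulated data. Alternatives were DESeq2 1.42.0, median-of-ratios size factors, no filter on low counts, a replicate block, effective-length offsets, protein-coding transcripts only, only the groups compared, and leaving out each library. Deviations of same-numbered libraries correlated with r from -0.0367 to 0.299, so pairing by replicate number was not settled. Between KO with vector and S586E at rest, r was 0.271, 0.0934 and 0.27, against at most -0.0238 for other numbers. Between resting and depolarized WT it was -0.0359, against 0.0359 for other numbers. Promoter sequences are from RefSeq (GRCm38.p6), with 8 of the 9 genes matched (not Foxp2), and the Cux1 junctions from GENCODE M21. Results for 2 listed genes are not reported here.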

Additional observations from a re-analysis of the deposited data

How the results depend on the processing

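Of 1025 values of the 9 genes recomputed under an alternative, 950 kept their direction and their side of the threshold, 28 moved, 15 gained and 14 lost a call, and 18 changed sign. The number of the 9 called after KCl at DIV7 was 3, and 1 to 3 when leaving out 1 library. For KO with vector against NT at rest it was 1, 0 with only the groups compared, and 0 to 1 when leaving out 1 library, with 0 reached without NT resting replicate 2. For S586E against NT at rest it was 0 to 1, again 0 without that library. With a replicate block, though pairing by replicate number was not settled, the number called was 5 at DIV7, adding Cux1 (adjusted p 0.0477, edgeR) and Sox5 (0.0252). For KO with vector against NT at rest it was 2 with the block, adding Fezf2 (0.0239). Leaving out the filter on low counts raised the calls over all genes, from 2 to 192 for KCl in NT cultures. For the response difference of KO with vector from NT they went from 0 to 448. Without that filter the number of the 9 called was 1 in place of 0 in 8 comparisons. The gene gained was Tbr1 in 7 of them (KCl in NT, adjusted p 0.0484, and in KO with vector, 0.04; WT against vector, 0.0294, NT, 0.0138, and S586E, 0.000229, at rest; the response differences of KO with vector from NT, 0.000178, and of DIV18 from DIV7, 0.000553) and Cux2 in S586E against vector (0.0446).

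Signs that changed were all of values not called. With effective-length offsets Cux1 was 0.02 and Cux2 -0.05 (KCl, DIV7), Sox5 -0.31 (KCl, NT) and -0.10 (KO against NT, rest), and Cux1 -0.01 (age). On the CASP end alone Cux1 was 0.01 (KCl, DIV7) and -0.26 (age). Leaving out 1 library gave, for KCl at DIV7, Rorb -0.10 to 0.21 and Foxp2 -0.38 to 0.10; for KCl in KO with vector, Pou3f2 -0.28 to 0.02; for KO with vector against NT, Tle4 -0.22 to 0.23 and Foxp2 -0.36 to 0.39 at rest and Pou3f2 -0.03 to 0.40 under KCl; for S586E against vector, Tbr1 -0.03 to 0.24. Fezf2 in S586A was -0.99 to 0.03 against vector, -0.92 to 0.10 against WT and -0.88 to 0.13 against NT. The cause was not tested.

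Counts over all genes moved more. At DIV7 KCl called 3371 genes, 1851 with protein-coding transcripts and 5857 with the block, and 1459 to 2630 when leaving out 1 library. KO with vector against NT called 1236 at rest (225 to 2016, and 100 to 1031 leaving out 1 library) and 560 under KCl (279 to 1437, and 37 to 241). S586E against NT called 583 (168 to 1582, and 3 to 539). Without the filter the comparisons that called 0 to 90 genes called 116 to 782. The low counts of Fezf2 and Foxp2 at DIV18 limit their precision.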
